A study of Homo sapiens with 10 samples.

Results

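The transcription factors that set myeloid and progenitor identity were followed in K562 cells, an established human myelogenous leukemia line with erythroid features, after 48 h with inhibitors of the CREBBP/EP300 bromodomains. They were 10 genes, MYB, RUNX1, SPI1, CEBPA, CEBPB, CEBPD, MEIS1, ETV6, IKZF1 and CBFA2T3, taken by symbol from a table of 23284 genes. All 10 were among the 12788 genes that were tested, those averaging 0.5 FPKM or more across the 10 samples. FPKM counts fragments relative to transcript length and to the mapped reads of the library, so levels of different genes can be set side by side. The 5 conditions were the vehicle DMSO, CBP30 at 2 µM, CBP30 at 5 µM, I-CBP112 at 2 µM and I-CBP112 at 5 µM, with 2 samples each, all from the same line without any engineered change. CBP30 and I-CBP112 both bind the acetyl-lysine pocket of the CREBBP and EP300 bromodomains, and the question was how far each compound and concentration moved these factors. The values describe 1 cell line at 1 time point, and since the RNA came from bulk cultures, fewer cells of a kind and less RNA per cell cannot be told apart.

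CREBBP and EP300 are acetyltransferases that are recruited by transcription factors to enhancers, where they acetylate histones. Several of the genes described here encode partners of these coactivators, MYB and RUNX1 among them. In blood formation MYB keeps progenitors proliferating, RUNX1 is needed for blood stem cells to arise, SPI1 (PU.1) and the C/EBP factors direct granulocyte and monocyte differentiation, and MEIS1 works with HOX proteins in stem cells and leukemia. ETV6 is an ETS family repressor, IKZF1 (Ikaros) is a zinc finger regulator best known from lymphocytes, and CBFA2T3 (ETO2) is a corepressor that joins the TAL1, GATA1 and LMO2 complex of erythroid and megakaryocytic cells.

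Differences were computed with limma on log2(FPKM + 1), with all 10 samples in 1 fit, and a gene was called changed when its Benjamini-Hochberg adjusted p over all tested genes was under 0.05. Such log2 differences understate the change of genes with low values. Depth is unknown because the table has FPKM and not reads, and the precision rests on 2 samples a condition. Each gene had 1 estimate of spread for all 5 conditions, so its SE was the same in every comparison with DMSO. Where 1 condition varies more, precision is overstated for it and understated for the others. Fitted only with DMSO, 2 µM CBP30 had 307 genes called and 5 µM CBP30 7797, against 4111 and 5962 in the fit of all samples.

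The erythroid identity of the cells showed in the data, since all 11 erythroid markers averaged 0.5 FPKM or more. Their summed level ran from 1896 to 1937 FPKM with DMSO, 784 to 1040 with 2 µM CBP30, 675 to 710 with 5 µM CBP30, 1146 to 1289 with 2 µM I-CBP112 and 1151 to 1240 with 5 µM I-CBP112. Of the 6 monocyte markers only LYZ reached a mean of 0.5 FPKM, with FCN1 and S100A9 at 0 in every sample, and of the 6 granulocyte markers 1 did, with ELANE, CTSG and S100A8 at 0. The megakaryocyte markers reached that mean for 2 of 5 genes, with GP9 and PF4 at 0, the B cell markers for 1 of 5, with MS4A1 at 0, the T cell markers for 3 of 5, with CD2 at 0, and the fibroblast markers for 1 of 4. The summed T cell markers were at 16.6 to 19.4 FPKM with DMSO and 27.5 to 30.4 with 5 µM CBP30, the fibroblast markers at 0.73 to 0.749 and 2.32 to 2.53, and over all samples the granulocyte markers ran from 0.431 to 2.31, the monocyte markers from 38.1 to 52.4, the megakaryocyte markers from 1.22 to 3.55 and the B cell markers from 1.02 to 1.88; the part of any of these in the values below was not tested. A single library stood apart. In replicate 1 of 2 µM CBP30 the difference from the DMSO mean fell with transcript length (Spearman's rho across 12130 genes −0.429), with medians of 0.262 (log2) for the shortest and −0.278 for the longest of 5 equal groups of transcripts, against a rho of −0.0429 in replicate 2. EEF1A1, a translation factor gene singled out after its values were seen, was listed at 0 in that library and at 5338 to 6661 FPKM elsewhere. In both samples of 5 µM CBP30 the slope was the opposite (rho 0.178 and 0.177). In most comparisons, values of the 10 factors that rest on the 2 µM CBP30 samples are also given without one of them. This was done where it ended or added a call or moved a called value by over 1.5 times. For some of them the result with the length trend removed is given too.

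With DMSO the 10 factors ranged from well above to well below the median tested gene. MYB was highest at 124 ± 0.31 FPKM (SD, n = 2), at or above 94.5% of the tested genes, followed by CBFA2T3 at 60.9 ± 1.8 (87.4%). CEBPB at 32.2 ± 2.64, SPI1 at 23.9 ± 1.68 and RUNX1 at 18.9 ± 0.295 formed the middle, at or above 76.4%, 69.5% and 63% of the tested genes. IKZF1 at 13.7 ± 0.257 lay near the median gene (54.4%). CEBPD at 7.29 ± 0.181, ETV6 at 4.03 ± 0.0444, CEBPA at 2.11 ± 0.0725 and MEIS1 at 1.67 ± 0.118 were below it, with MEIS1 at or above only 14.5% of the tested genes. With DMSO no neighbours in this order overlapped between their samples. With 5 µM CBP30 the order was less distinct: MYB was still first, but CBFA2T3 moved from the second to the fifth place, and the samples of SPI1 and CEBPB, of RUNX1 and CBFA2T3, of IKZF1 and CEBPD, and of MEIS1 and CEBPA overlapped.

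**Figure D1:**
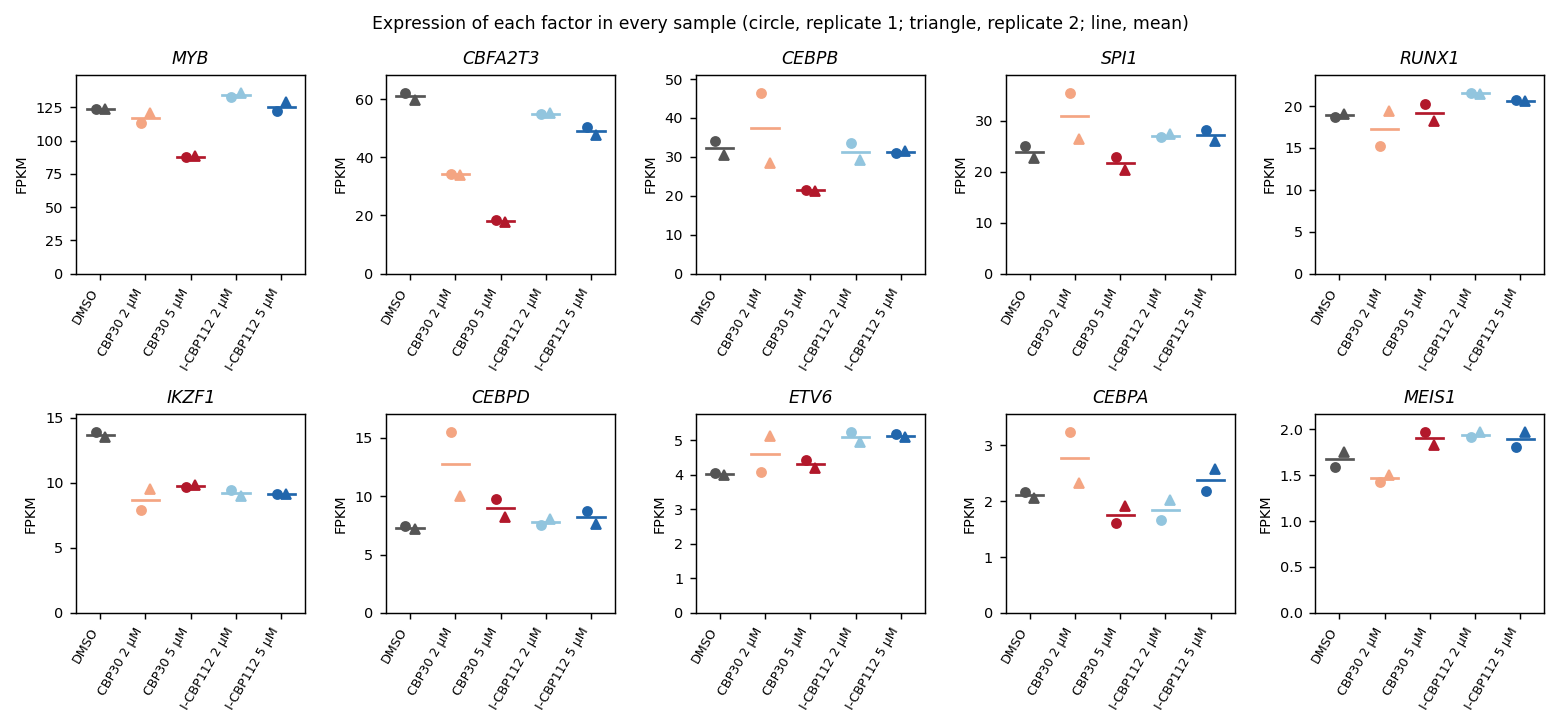
FPKM of each factor in every sample, by condition, on linear axes that start at 0 (circle, replicate 1; triangle, replicate 2; line, mean of the 2 samples). CBFA2T3 steps down from about 60.9 with DMSO to 34.1 and 18.1 with 2 and 5 µM CBP30, IKZF1 lies below DMSO in all treated samples, and for CEBPB, SPI1, CEBPA and CEBPD the circle of 2 µM CBP30 stands above its triangle.

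Relative to DMSO, 5 µM CBP30 lowered 4 of the 10 factors, MYB, CEBPB, IKZF1 and CBFA2T3, and raised none, where 25.4% of all tested genes were called lower and 21.2% higher. With 2 µM CBP30 IKZF1 and CBFA2T3 were lower and CEBPD was higher (16.3% of tested genes lower, 15.9% higher). With 5 µM I-CBP112 IKZF1 and CBFA2T3 were lower (3.28% lower, 3.84% higher over all genes), and with 2 µM I-CBP112 only IKZF1 was (0.735% lower, 0.868% higher). For both CBP30 concentrations the share of members called was therefore close to the share of all genes. The median log2 difference over the members was −0.15 with 5 µM CBP30, 0.034 with 2 µM CBP30, 0.12 with 5 µM I-CBP112 and 0.10 with 2 µM I-CBP112, beside −0.0096, 0.0051, −0.0042 and −0.0037 over all tested genes. The 4 comparisons share the same DMSO samples.

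**Figure D2:**
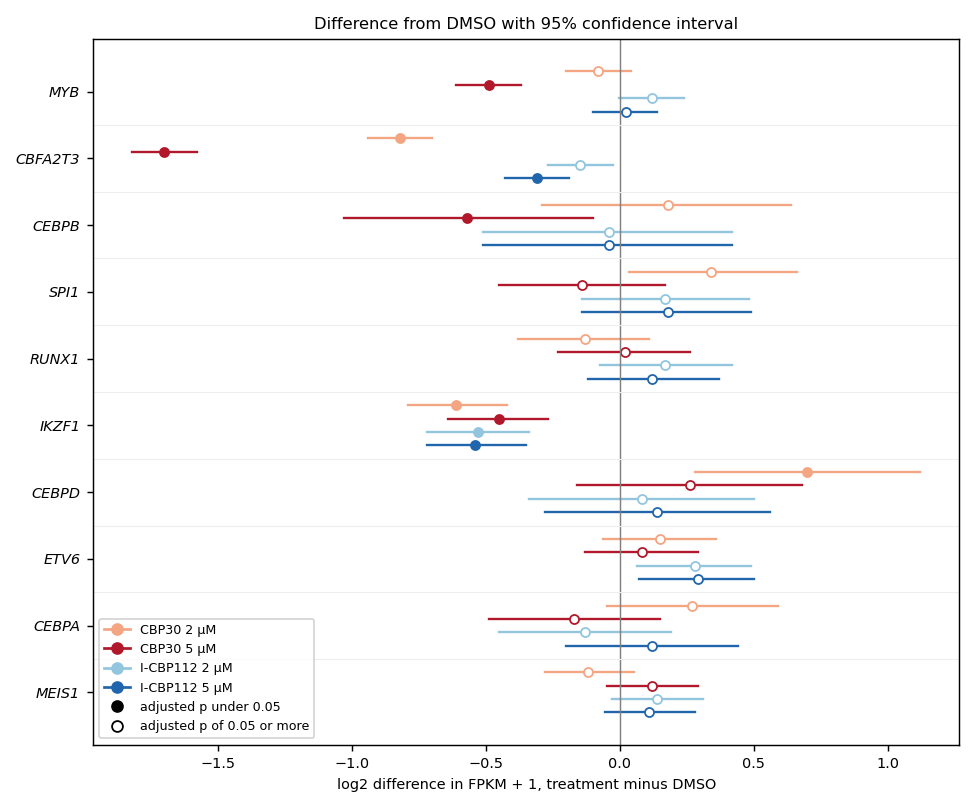
Difference from DMSO in log2(FPKM + 1) for each factor and treatment, with its 95% confidence interval from the limma fit (filled, adjusted p under 0.05; open, 0.05 or more). CBFA2T3 with 5 µM CBP30 is farthest from 0 at −1.70, the 4 intervals of IKZF1 all lie below 0, and the C/EBP and SPI1 intervals are the widest.

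CBFA2T3, the corepressor, changed most among the 10 factors. It is encoded on the minus strand of chromosome 16 (hg19 chr16:88941266-89043615). Its levels were 62.2 and 59.7 FPKM with DMSO, 34.3 and 33.9 with 2 µM CBP30 and 18.5 and 17.6 with 5 µM CBP30. With I-CBP112 they were 54.8 and 55.1 at 2 µM and 50.4 and 47.5 at 5 µM. Every treated sample lay below both DMSO samples, and the CBP30 samples lay below all I-CBP112 samples. Relative to DMSO the mean was 56% with 2 µM CBP30 (log2 difference −0.82, SE 0.0509, adjusted p 0.000109) and 29.7% with 5 µM CBP30 (−1.70, SE 0.0509, adjusted p 1.79e-06). With 5 µM I-CBP112 it was 80.4% (−0.31, adjusted p 0.0153), and at 2 µM it was 90.1%, which did not pass the threshold (−0.15, adjusted p 0.252). The differences with CBP30 were called under every one of the 20 alternatives (adjusted p up to 0.000653 at 5 µM and up to 0.0384 at 2 µM). The call with 5 µM I-CBP112 was lost for CBFA2T3 when either DMSO sample or either 5 µM I-CBP112 sample was left out (adjusted p 0.118 and 0.0705 without DMSO replicates 1 and 2, 0.0654 and 0.119 without I-CBP112 replicates 1 and 2). The 2 samples of 2 µM CBP30 differed for this gene by a ratio of 1.01, and without replicate 1 the 2 µM difference was −0.83 (adjusted p 0.000265).

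The upstream window of CBFA2T3 is printed because this gene carried the largest change. Those of MYB and IKZF1 are printed because these factors behaved differently under the same treatments. The sequences come from RefSeq (a table on GRCh38.p14), which had windows for 8 of the 10 genes, and each was placed in hg19 by an exact match. They are the 250 bases before an annotated transcription start, 5′ to 3′ on the gene's strand, with motif matches in capitals. The files hold 1 value per gene, so they do not show which start was used.
CBFA2T3, chr16:89007759-89008008, minus strand: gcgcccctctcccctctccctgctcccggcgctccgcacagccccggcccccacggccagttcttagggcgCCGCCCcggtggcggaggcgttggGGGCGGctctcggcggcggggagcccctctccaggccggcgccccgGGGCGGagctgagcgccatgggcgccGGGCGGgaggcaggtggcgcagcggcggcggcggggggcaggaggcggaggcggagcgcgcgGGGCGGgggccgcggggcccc
The capitals mark 5 matches to the GC box GGGCGG on either strand, a letter string found in 42.6% of 35116 windows of the same length. The window was 84.4% G or C, and its start lies 35.9 kb inside the outermost annotated start of the gene. No GATA string (AGATAA or TGATAA, in 14.6% of windows), RUNX string (TGTGGT, 11%), ETS string (GGAAGT, 19.5%), C/EBP string (TTGCNNAA, 9.05%) or E-box (CACGTG, 6.34%) was in it on either strand.

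MYB, the progenitor factor and the most abundant of the group (hg19 chr6:135502446-135540311, plus strand), was called lower than DMSO with 5 µM CBP30 and in no other comparison with DMSO. It was at 124 FPKM in both DMSO samples, 113 and 121 with 2 µM CBP30 and 87.3 and 88.3 with 5 µM CBP30. With I-CBP112 it was at 133 and 136 at 2 µM and 122 and 129 at 5 µM. Both 5 µM CBP30 samples were below all others, while the 2 µM I-CBP112 samples were the highest. The mean with 5 µM CBP30 was 71% of DMSO (log2 difference −0.49, SE 0.0516, adjusted p 0.000331), and the call was kept under all 20 alternatives. With 2 µM CBP30 the mean was 94.6% of DMSO (−0.08, 95% confidence interval −0.20 to 0.042, adjusted p 0.268). MYB passed the threshold at 2 µM CBP30 in the fit without replicate 2 of that group, where the length-biased replicate stood alone (−0.13, adjusted p 0.0358). I-CBP112 gave 109% at 2 µM (0.12, interval −0.004 to 0.24, adjusted p 0.377) and 102% at 5 µM (0.021, interval −0.10 to 0.14, adjusted p 0.871). The promoter window of MYB, 75.6% G or C and directly before the outermost annotated start, held 1 GC box and none of the other strings.
MYB, chr6:135502196-135502445, plus strand: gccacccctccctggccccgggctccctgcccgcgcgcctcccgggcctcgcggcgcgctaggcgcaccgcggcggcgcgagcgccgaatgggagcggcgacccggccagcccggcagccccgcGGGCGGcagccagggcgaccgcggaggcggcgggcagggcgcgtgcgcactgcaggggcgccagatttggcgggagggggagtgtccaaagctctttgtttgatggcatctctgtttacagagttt

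IKZF1, the Ikaros zinc finger gene (hg19 chr7:50343664-50472799, plus strand), was lower with all 4 treatments. Its levels were 13.9 and 13.5 FPKM with DMSO, 7.9 and 9.51 with 2 µM CBP30 and 9.67 and 9.82 with 5 µM CBP30. With I-CBP112 they were 9.46 and 8.95 at 2 µM and 9.16 and 9.15 at 5 µM. The 8 treated samples all lay below both DMSO samples, and among the treatments the samples ran close together, with means of 63.4%, 71%, 67.1% and 66.7% of DMSO in the same order. The log2 differences were −0.61 with 2 µM CBP30 (SE 0.0797, adjusted p 0.00198), −0.45 with 5 µM CBP30 (adjusted p 0.00316), and, for I-CBP112, −0.53 at 2 µM (adjusted p 0.0274) and −0.54 at 5 µM (adjusted p 0.0109). All 4 rest on the same DMSO samples. The call of IKZF1 with 5 µM CBP30 was kept under all 20 alternatives, and that with 2 µM CBP30 was lost only when the groups compared were fitted alone (adjusted p 0.0942); without replicate 1 of 2 µM CBP30 it was −0.49 (adjusted p 0.000976). With 5 µM I-CBP112 it was lost when a DMSO sample (adjusted p 0.0924 without replicate 1, 0.0727 without replicate 2) or a 5 µM I-CBP112 sample (0.0859 and 0.09) was left out. With 2 µM I-CBP112 the call of IKZF1 held in 10 of 20 alternatives, and leaving out a DMSO, 5 µM CBP30 or I-CBP112 sample gave adjusted p from 0.0838 to 0.207.
Of the 3 upstream windows that RefSeq gives for IKZF1, the third is shown, the only one of the 3 without an overlap with annotated exons. It lies 15 kb inside the outermost start, was 32.8% G or C, and held 2 GATA strings (capitals). They lay 106 and 72 bases before its annotated start, the second on the opposite strand. The window ends in a run of C and T and then AG, as introns do before an exon. Whether any transcript starts after it, or it acts as a promoter, was not tested.
IKZF1, chr7:50358394-50358643, plus strand: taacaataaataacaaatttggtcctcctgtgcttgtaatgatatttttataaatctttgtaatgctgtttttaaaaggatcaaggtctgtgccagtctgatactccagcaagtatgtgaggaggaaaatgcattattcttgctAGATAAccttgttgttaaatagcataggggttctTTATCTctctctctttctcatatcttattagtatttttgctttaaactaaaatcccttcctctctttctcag
This window held no GC box. The other windows of IKZF1 held no GATA string. The first, 0.648 kb from the outermost start, was 71.2% G or C with 4 GC boxes, and the second was 45.2% G or C with none.

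RUNX1, the core-binding factor needed for definitive blood formation (hg19 chr21:36160098-37376965, minus strand), did not pass the threshold in any comparison. It was at 18.7 and 19.1 FPKM with DMSO, 15.2 and 19.4 with 2 µM CBP30 and 20.2 and 18.2 with 5 µM CBP30. Its I-CBP112 samples were at 21.6 and 21.4 (2 µM) and 20.7 and 20.6 (5 µM). The CBP30 samples overlapped those of DMSO, and the I-CBP112 samples were slightly above them. The log2 difference with 5 µM CBP30 was 0.018, with a 95% confidence interval from −0.23 to 0.26. With 2 µM CBP30 it was −0.13 (interval −0.38 to 0.11), and this value turned to 0.035 without replicate 1 of that group and to −0.30 without replicate 2 (adjusted p 0.68 and 0.00736). RUNX1 has the longest transcript of the 10 genes, 7274 bases, and replicate 1 of 2 µM CBP30 was 0.784 times replicate 2.

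SPI1 and the 3 C/EBP genes, the factors of granulocytes and monocytes, have the 4 shortest transcripts of the group, and their 2 samples of 2 µM CBP30 disagreed. For CEBPD (1252 bases), SPI1 (1374), CEBPB (1839) and CEBPA (2601) replicate 1 was 1.54, 1.35, 1.63 and 1.4 times replicate 2. For the other 6 factors, with transcripts from 3684 to 7274 bases, the ratio ran from 0.784 to 1.01. The median longest transcript over the tested genes was 3628 bases. The level of these 4 genes with 2 µM CBP30 therefore depends on which sample is read.

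CEBPB, a C/EBP factor of stress-induced granulocyte formation and macrophages (hg19 chr20:48807367-48809205, plus strand), was at 34.1 and 30.4 FPKM with DMSO, 46.5 and 28.5 with 2 µM CBP30 and 21.5 and 21.3 with 5 µM CBP30. With I-CBP112 it was at 33.5 and 29.1 at 2 µM and at 31 and 31.5 at 5 µM. Both 5 µM CBP30 samples were below all others, at a mean of 66.3% of DMSO (log2 difference −0.57, SE 0.198, adjusted p 0.0499). This call of CEBPB held in 9 of 20 alternatives, with adjusted p from 0.00111 to 0.203. It was lost without either DMSO sample (0.203 and 0.105), either 5 µM CBP30 sample (0.151 and 0.162), either 2 µM I-CBP112 sample (0.0736 and 0.0737) or either 5 µM I-CBP112 sample (0.0809 and 0.0808). It was at −0.57 with an adjusted p of 0.00111 without replicate 1 of 2 µM CBP30, and at −0.44 (adjusted p 0.0393) with the length trend removed. With 2 µM CBP30 CEBPB was at 117% of DMSO (0.18, adjusted p 0.52), a value that turned to −0.17 (adjusted p 0.214) without replicate 1 and became 0.52 (adjusted p 0.00464) without replicate 2.

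CEBPD, a C/EBP factor induced by cytokines and stress, on the minus strand of chromosome 8, was the only member called higher than DMSO. It was at 7.42 and 7.17 FPKM with DMSO, 15.5 and 10 with 2 µM CBP30 and 9.75 and 8.19 with 5 µM CBP30. The I-CBP112 samples of CEBPD were at 7.55 and 8.03 (2 µM) and 8.76 and 7.6 (5 µM). All 8 treated samples were above both DMSO samples, and the 2 µM CBP30 samples were the highest and the farthest apart. The log2 difference with 2 µM CBP30 was 0.70 (SE 0.179, adjusted p 0.0244), and 0.54 (adjusted p 0.00772) with the length trend removed. Its size rested on the sample read, at 0.41 (adjusted p 0.0359) without replicate 1 of 2 µM CBP30 and 0.99 (adjusted p 0.000833) without replicate 2. The call of CEBPD held in 17 of 20 alternatives. It was lost when only the groups compared were fitted (adjusted p 0.17), and without DMSO replicate 1 (0.72) or replicate 2 (0.68). With 5 µM CBP30 the difference of CEBPD was 0.26 (adjusted p 0.269). It passed the threshold with the length trend removed (0.42, adjusted p 0.0143), and, at the same 0.26, without replicate 1 or replicate 2 of 2 µM CBP30 (adjusted p 0.0499 and 0.0498).

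SPI1, the ETS factor PU.1 (hg19 chr11:47376411-47400098, minus strand), was at 25.1 and 22.7 FPKM with DMSO, 35.5 and 26.4 with 2 µM CBP30 and 22.8 and 20.4 with 5 µM CBP30. The I-CBP112 samples of SPI1 were at 26.7 and 27.3 (2 µM) and 28.1 and 26.1 (5 µM). The samples of 2 µM CBP30 and of I-CBP112 were above both DMSO samples, and those of 5 µM CBP30 overlapped them. None of these differences passed the threshold, with log2 values of 0.34 and −0.14 for CBP30 at 2 and 5 µM (adjusted p 0.086 and 0.425) and 0.17 and 0.18 for I-CBP112 (adjusted p 0.66 and 0.505). For 2 µM CBP30 the value of SPI1 was 0.14 (adjusted p 0.268) without replicate 1 and 0.55 (adjusted p 0.0027) without replicate 2.
CEBPA, the C/EBP factor that granulocyte-monocyte progenitors require (hg19 chr19:33790840-33793440, minus strand), was low throughout. It was at 2.16 and 2.06 FPKM with DMSO, 3.24 and 2.32 with 2 µM CBP30 and 1.61 and 1.91 with 5 µM CBP30. The I-CBP112 samples of CEBPA were at 1.67 and 2.03 (2 µM) and 2.18 and 2.58 (5 µM). The 2 µM CBP30 and 5 µM I-CBP112 samples were above both DMSO samples, and the other treated samples were below them. The log2 differences of CEBPA from DMSO ranged from −0.17 with 5 µM CBP30 (95% confidence interval −0.49 to 0.15) to 0.27 with 2 µM CBP30 (interval −0.047 to 0.59, adjusted p 0.164), and none was called. The value of CEBPA for 2 µM CBP30 was 0.095 (adjusted p 0.573) without replicate 1 of that group and 0.45 (adjusted p 0.0206) without replicate 2, where the length-biased replicate stood alone.

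MEIS1, the homeobox partner of HOXA9 (hg19 chr2:66660584-66801001, plus strand), was the lowest of the 10 by mean with DMSO, 2 µM CBP30 and 5 µM I-CBP112, and CEBPA was in the other conditions, where the samples of both genes overlapped. MEIS1 was at 1.59 and 1.75 FPKM with DMSO, 1.43 and 1.5 with 2 µM CBP30 and 1.97 and 1.83 with 5 µM CBP30. Its levels with I-CBP112 were 1.91 and 1.97 at 2 µM and 1.81 and 1.97 at 5 µM. The 2 µM CBP30 samples were below DMSO and all other treated samples above it, by log2 differences from −0.12 (2 µM CBP30) to 0.14 (2 µM I-CBP112), none of them called.
ETV6, the ETS repressor (hg19 chr12:11802608-12048311, plus strand), was at 4.06 and 4 FPKM with DMSO, 4.07 and 5.11 with 2 µM CBP30 and 4.43 and 4.2 with 5 µM CBP30. Its levels in the I-CBP112 samples were 5.24 and 4.95 at 2 µM and 5.18 and 5.08 at 5 µM. All treated samples were above both DMSO samples, with 1 sample of 2 µM CBP30 nearly level with them, and those of I-CBP112 were at a mean of 127% at either concentration. The log2 differences of ETV6 with I-CBP112 were 0.28 at 2 µM (95% confidence interval 0.065 to 0.49, adjusted p 0.228) and 0.29 at 5 µM (interval 0.073 to 0.50, adjusted p 0.115). Without replicate 1 of 2 µM CBP30 they had adjusted p of 0.0233 and 0.00991, and without replicate 2 of that group 0.0236 and 0.0101. The difference of ETV6 with 2 µM CBP30 was 0.15 (adjusted p 0.245), and 0.28 without replicate 1. It passed the threshold without replicate 1 and with the length trend removed.

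Raising CBP30 from 2 to 5 µM lowered MYB, SPI1, CEBPA, CEBPB and CBFA2T3 and raised MEIS1, while 21.3% of all tested genes were called lower and 17.6% higher. The median difference was −0.42 over the members and −0.025 over all genes. CBFA2T3 at 5 µM was 53% of its level at 2 µM (log2 difference −0.88, SE 0.0509, adjusted p 0.000235), and MYB was 75% (−0.41, SE 0.0516, adjusted p 0.00283). Without replicate 1 of 2 µM CBP30 both remained called. The call of MYB was lost with quantile normalization (−0.24, adjusted p 0.0707), and both were lost when these 2 groups were fitted alone (adjusted p 0.124 for MYB and 0.108 for CBFA2T3). The changes of the short-transcript factors were smaller without replicate 1. CEBPB moved from −0.74 (adjusted p 0.0259) to −0.40 (adjusted p 0.0232) and its call was lost without replicate 1 or 2 of 5 µM CBP30 (adjusted p 0.106 and 0.114). SPI1 moved from −0.48 (adjusted p 0.028) to −0.28 (adjusted p 0.0569), and to −0.17 (adjusted p 0.0957) with the length trend removed. CEBPA moved from −0.44 (adjusted p 0.039) to −0.27 (adjusted p 0.138). MEIS1 moved from 0.24 (adjusted p 0.038) to 0.22 (adjusted p 0.0791), and to 0.15 (adjusted p 0.116) with the length trend removed. Leaving out either 5 µM CBP30 sample also ended the calls of SPI1, CEBPA and MEIS1. The call of SPI1 held in 12 of 20 alternatives, that of CEBPA in 5 of 19 and that of MEIS1 in 6 of 19. CEBPA and MEIS1 were also lost when any I-CBP112 sample was left out, and CEBPA without either DMSO sample. For CEBPD the value was −0.44 (adjusted p 0.0878), and it was called only without replicate 2 of 2 µM CBP30 (−0.73, adjusted p 0.00213). IKZF1, which was lower than DMSO at both concentrations, differed between them by 0.15 (95% confidence interval −0.036 to 0.34, adjusted p 0.164). It was called higher at 5 µM without replicate 2 of 2 µM CBP30 (0.27, adjusted p 0.00322), as was RUNX1 (0.31, adjusted p 0.00504, against 0.15 and 0.28 with all samples). ETV6 differed by −0.067 (adjusted p 0.571), and by −0.20 without replicate 1. It was called lower without replicate 1 and with the length trend removed.

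Between 2 and 5 µM I-CBP112 none of the 10 factors was called by limma, where 0.0626% of all tested genes were. CBFA2T3 was the 1 member with an unadjusted p under 0.05 (49 FPKM at 5 µM and 54.9 at 2 µM, log2 difference −0.16, unadjusted p 0.0146, adjusted p 0.674). MYB differed by −0.10 (95% confidence interval −0.22 to 0.025), CEBPA by 0.25 (interval −0.072 to 0.56) and IKZF1 by −0.0072 (interval −0.19 to 0.18).

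CBP30 and I-CBP112 were compared at the same concentration and time, 2 pairs of conditions, with p adjusted over all tested genes in each. At 5 µM, MYB and CBFA2T3 were lower with CBP30 and no member was higher, beside 17.9% and 13.6% of all tested genes. CBFA2T3 with CBP30 was 36.9% of its level with I-CBP112 (log2 difference −1.39, 95% confidence interval −1.51 to −1.27, adjusted p 1.21e-05), and MYB was 69.9% (−0.51, interval −0.63 to −0.39, adjusted p 0.00068). Both calls were kept under all 20 alternatives. At 2 µM the same 2 factors were lower with CBP30 and none was higher, beside 8.45% and 7.13% of all genes. CBFA2T3 was at 62.1% (−0.67, interval −0.79 to −0.55, adjusted p 0.000932), a call kept in 19 of 20 alternatives. MYB was at 87.2% (−0.20, interval −0.32 to −0.076, adjusted p 0.0451), a call kept in 7 of 20. Leaving out any DMSO, 5 µM CBP30 or I-CBP112 sample gave adjusted p from 0.074 to 0.162 for MYB at 2 µM.
IKZF1 was not called between the compounds, with a difference of 0.081 at 5 µM (interval −0.11 to 0.27, adjusted p 0.468) and −0.077 at 2 µM (interval −0.26 to 0.11, adjusted p 0.508), so differences of up to 0.27 in size are within the intervals. CEBPB and SPI1 at 5 µM were −0.53 (interval −0.99 to −0.061, adjusted p 0.0834) and −0.31 (interval −0.62 to −0.0029, adjusted p 0.114). Both passed the threshold without either 2 µM CBP30 sample, with the same differences (adjusted p 0.00232 for CEBPB and 0.0127 for SPI1), as did ETV6 at −0.21 (adjusted p 0.0122 without replicate 1 and 0.0125 without replicate 2, against 0.127) and CEBPA at −0.29 (0.0498 and 0.0495, against 0.147). At 2 µM, CEBPD (0.62, adjusted p 0.0579), CEBPA (0.40, adjusted p 0.0841), RUNX1 (−0.30, adjusted p 0.0872) and MEIS1 (−0.26, adjusted p 0.0524) were not called, and without replicate 2 of 2 µM CBP30 they were (0.91, 0.58, −0.47 and −0.27, adjusted p 0.00142, 0.00884, 0.00154 and 0.0265), while without replicate 1 they were at 0.33, 0.22, −0.14 and −0.24 (adjusted p 0.102, 0.245, 0.171 and 0.0874). With the length trend removed, CEBPD was called at 2 µM as well. Without replicate 2 of 2 µM CBP30, SPI1 (0.38), CEBPB (0.56), ETV6 (−0.26) and IKZF1 (−0.20) were called too. Over all genes the calls rose as well, at 2 µM from 1993 to 6792 without replicate 2 of 2 µM CBP30, and at 5 µM from 4020 to 6672 and 6664 without replicate 1 and 2.

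**Figure D3:**
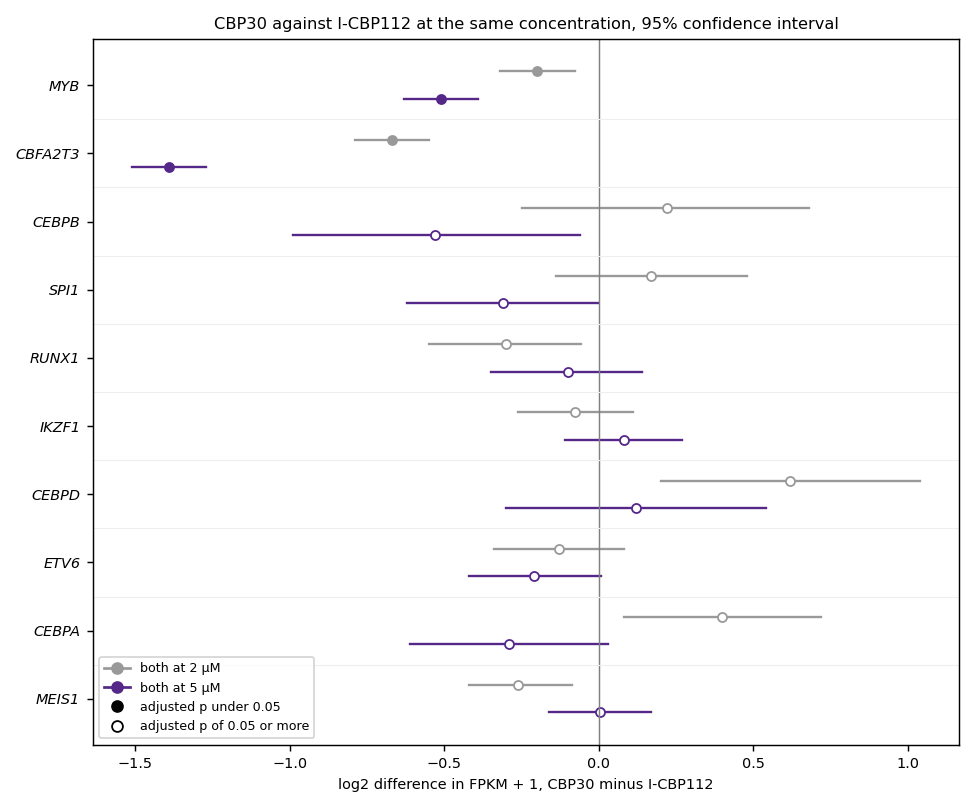
Difference between CBP30 and I-CBP112 in log2(FPKM + 1) at 2 µM (grey) and 5 µM (purple), with its 95% confidence interval from the limma fit (filled, adjusted p under 0.05; open, 0.05 or more). MYB and CBFA2T3 lie below 0 at both concentrations, with CBFA2T3 at −0.67 and −1.39, and both IKZF1 intervals include 0.

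Whether the step from 2 to 5 µM differed between the compounds was tested directly. It did for CBFA2T3, whose step was more negative with CBP30 by 0.72 (log2 difference of differences −0.72, SE 0.0719, 95% confidence interval −0.89 to −0.55, adjusted p 0.00778), and this held under all 20 alternatives (adjusted p up to 0.0475). No other member was called, where 3.32% of all tested genes were called lower and 1.63% higher. The share of the called genes that were lower was 67.1%, and 57% with quantile normalization. MYB had −0.31 (SE 0.073, adjusted p 0.0557). It passed the threshold with the length trend removed, with median centring, and without replicate 1 (−0.36) or replicate 2 (−0.27) of 2 µM CBP30. Without replicate 2 there were 6 members lower and 2 higher, but over all 12788 genes the calls then rose from 632 to 6868 (3735 lower and 3133 higher).

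The families and partners of these factors, 107 further genes in 10 lists, held 63 tested genes. Of these, 19 were lower and 21 higher with 5 µM CBP30, 16 and 15 with 2 µM CBP30, and 7 and 9, then 3 and 4, with I-CBP112 at 5 and 2 µM. Without replicate 1 of 2 µM CBP30 the counts were 23 and 28, 15 and 16, 12 and 12, and 6 and 11. Without that sample more genes were also called over all genes in each of these comparisons. In the fit of all samples 25.4% of all tested genes were lower and 21.2% higher with 5 µM CBP30, and 16.3% and 15.9% with 2 µM CBP30. With I-CBP112 the shares were 3.28% and 3.84% at 5 µM, and 0.735% and 0.868% at 2 µM. The list counts below stand beside these shares. Genes named below with a difference from 5 µM CBP30 kept that call in all alternatives that tested them, unless stated.

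Among the partners of CBFA2T3, the GATA1 and TAL1 complex, 7 of 10 tested genes were lower and 1, TAL1 (named after its values were seen), was higher with 5 µM CBP30 (median log2 difference −0.81). The counts of lower genes were 7 with 2 µM CBP30 and 5 and 2 with I-CBP112 at 5 and 2 µM, and none was higher in these 3 comparisons (medians −0.47, −0.30 and −0.19). Some calls with I-CBP112 depended on the processing or on the samples kept in the fit. KLF1 at 2 µM held in 8 of 20 alternatives. TCF3, LDB1 and GATA2, named after their values were seen, held at 5 µM in 9, 14 and 16 of 20. LMO2, the bridging protein of the complex, went from 88.6 ± 2.67 FPKM with DMSO to 19.1 ± 2.01 and 7.96 ± 0.382 with CBP30 at 2 and 5 µM, and to 48.4 ± 0.0913 and 34.8 ± 0.0984 with I-CBP112 at 2 and 5 µM, and was called in all 4 comparisons and all alternatives (−3.32 with 5 µM CBP30, adjusted p 4.05e-07). The erythroid factor KLF1 was at 65.3 ± 4.85 with DMSO and 8.44 ± 0.0625 with 5 µM CBP30 (−2.81, adjusted p 1.44e-05). GATA1 was at 170 ± 0.863 and 53.1 ± 0.528 (−1.66, adjusted p 2.99e-05). The summed erythroid markers were lower in the same samples, and their part in these values was not tested.

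In the RUNX, CBFB and ETO family the 3 tested genes of 5 were all higher with 5 µM CBP30 (median 0.55), which was the opposite direction to CBFA2T3. Of the same genes 2 were higher with 2 µM CBP30 and 1 and 0 with I-CBP112 at 5 and 2 µM, and 0 were lower in any of these. CBFB, the partner of RUNX proteins that does not itself bind DNA, was at 87.2 ± 0.766 FPKM with DMSO, 124 ± 0.112 and 132 ± 1.51 with CBP30 at 2 and 5 µM, and 98.8 ± 2.82 and 112 ± 0.495 with I-CBP112 at 2 and 5 µM (0.59 with 5 µM CBP30, adjusted p 6.89e-05). CBFA2T2, a paralog of CBFA2T3, was at 4.11 ± 0.129 with DMSO and 5.96 ± 0.19 with 5 µM CBP30 (0.44, adjusted p 0.0081), a call kept in 17 of 19 alternatives. RUNX2, named after its values were seen, was the other called gene, at 1.02 and 1.96 FPKM (0.55, adjusted p 0.00848, lost without replicate 2 of 5 µM CBP30). The call of RUNX2 with 2 µM CBP30 held in 6 of 19 alternatives. Of the 2 further MYB family genes, MYBL1, also named after its values were seen, was higher with 2 and 5 µM CBP30 from a level near 0 (0.212 FPKM with DMSO, 0.623 and 1.39 with CBP30; log2 differences 0.42, held in 14 of 19 alternatives and lost without replicate 2 of 2 µM CBP30, and 0.98), and MYBL2 was not called in the comparisons with DMSO.

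In the Ikaros family, none of the 4 relatives of IKZF1 was called lower with 5 µM CBP30 and 2 were higher. With 2 µM CBP30 2 were lower and 0 higher, and with I-CBP112 0 were called at either concentration. IKZF2 (Helios) was at 4.09 ± 0.12 FPKM with DMSO and 9.62 ± 0.322 with 5 µM CBP30 (1.06, adjusted p 0.00206), and IKZF4 (Eos) at 8.38 ± 0.155 and 13.5 ± 0.00346 (0.62, adjusted p 0.0029). The 2 genes lower with 2 µM CBP30 were IKZF3 (Aiolos) and IKZF5, the latter named after its values were seen and called in 11 of 20 alternatives. The call of IKZF3 (−0.63, adjusted p 0.0472) held in 6 of 19 alternatives and was among those lost without replicate 1 of that group.

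In the C/EBP family and its regulators, 3 of 4 tested genes were lower and 1 higher with 5 µM CBP30 (median −0.51), and 1 was lower in each of the other 3 comparisons. TRIB2, a pseudokinase known for directing the degradation of C/EBPα, was that gene in all 4 comparisons, at 102 ± 1.16 FPKM with DMSO, 56.8 ± 1.51 and 64.8 ± 0.324 with CBP30 at 2 and 5 µM, and 79.1 ± 1.82 and 72.1 ± 1.01 with I-CBP112 at 2 and 5 µM (−0.65 with 5 µM CBP30, adjusted p 5.21e-05). Its call with 2 µM I-CBP112 (−0.36, adjusted p 0.0135) held in 13 of 20 alternatives. Its relative TRIB1 was higher with 5 µM CBP30, at 5.73 ± 0.188 against 3.27 ± 0.427 (0.66, adjusted p 0.000947). DDIT3 (CHOP), a stress-induced C/EBP partner, was at 99.1 ± 4.57 with DMSO and 62.9 ± 2.26 with 5 µM CBP30 (−0.65, adjusted p 0.0027). The remaining lower gene was CEBPG (−0.38, adjusted p 0.000717), named after its values were seen.

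The ETS family, to which SPI1 and ETV6 belong, had 16 tested genes of 25, of which 4 were lower and 5 higher with 5 µM CBP30, 2 and 2 with 2 µM CBP30, and 0 and 2, then 0 and 0, with I-CBP112 at 5 and 2 µM. ETV5 was at 12.3 ± 0.179 FPKM with DMSO and 23.9 ± 0.168 with 5 µM CBP30 (0.90, adjusted p 1.51e-05), ETV1 at 4.41 ± 0.0395 and 8.74 ± 0.749 (0.85, adjusted p 0.000327), and ETS1 at 5.61 ± 0.21 and 2.68 ± 0.038 (−0.84, adjusted p 0.000157). FEV, named after its values were seen, was called in opposite directions at 5 µM, at 9.65 FPKM with DMSO, 5.15 with CBP30 and 16.6 with I-CBP112 (−0.79 and 0.73, adjusted p 0.002 and 0.0179). Its call with I-CBP112 held in 16 of 20 alternatives and was lost when a DMSO or 5 µM I-CBP112 sample was left out.

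Of the other myeloid and progenitor factors, 3 of 9 tested genes were lower and 3 higher with 5 µM CBP30. GFI1B, the repressor of erythroid and megakaryocytic cells, and its myeloid and lymphoid paralog GFI1 went in opposite directions. GFI1B was at 34.1 ± 0.676 FPKM with DMSO, 13.1 ± 1.81 and 6.55 ± 0.0341 with CBP30 at 2 and 5 µM, and 24.3 ± 0.492 and 23.1 ± 1.49 with I-CBP112 at 2 and 5 µM (−2.21 with 5 µM CBP30, adjusted p 5.91e-06). GFI1 was at 1.81 ± 0.176, 4.58 ± 0.234, 3.83 ± 0.25, 3 ± 0.0685 and 3.01 ± 0.189 FPKM in the same order (0.78 with 5 µM CBP30, adjusted p 0.000252). EGR1, an immediate early factor of monocyte differentiation, was higher in all 4 comparisons and all alternatives, from 76.8 ± 1.98 FPKM with DMSO to 99.2 ± 0.52 with CBP30 and 127 ± 6.2 with I-CBP112, both at 5 µM (0.37 and 0.72, adjusted p 0.001 and 0.000498).

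Downstream myeloid genes were mostly too low to test. Of 22 granule, receptor and phagocyte genes 8 were tested, of which 2 were lower and 1 higher with 5 µM CBP30, 1 and 2 with 2 µM CBP30, and 0 and 1 with each I-CBP112 concentration. LYZ, lysozyme, was at 38.2 ± 0.315 FPKM with DMSO, and at 5 µM it was at 46.1 ± 1.93 with CBP30 (0.27, adjusted p 0.00306) and 52.1 ± 0.0553 with I-CBP112 (0.44, adjusted p 0.00308). The surface protein CD33 was at 85.6 ± 2.96 with DMSO, and at 104 ± 6.1 with 2 µM CBP30, where it was called higher (0.28, adjusted p 0.0105, in 18 of 20 alternatives), and at 81.1 ± 2.63 with 5 µM CBP30 (−0.077, adjusted p 0.301). The 2 genes lower with 5 µM CBP30, named after their values were seen, were CSF3R, the G-CSF receptor, at 1.8 and 0.573 FPKM (−0.83, adjusted p 0.000274), and ITGAM, the integrin CD11b, at 1.86 and 1.27 (−0.33, adjusted p 0.0311, a call held in 13 of 19 alternatives). CSF3R was also lower with 2 µM CBP30 (1.14 FPKM, −0.39, adjusted p 0.0137), a call held in 15 of 19 alternatives. It was lost with the length trend removed, with the compared groups fitted alone, and without DMSO replicate 1. Of 7 progenitor receptors and surface genes only KIT, the stem cell factor receptor, was tested, at 3.09 ± 0.0943 FPKM with DMSO and 6.08 ± 0.0695 with 5 µM CBP30 (0.79, adjusted p 0.00095).

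The genes with the pattern most like the 3 members of widest range were taken by Pearson correlation of log2(FPKM + 1) over the 10 samples, among 8996 genes averaging 5 FPKM or more. The samples fall into 5 conditions and share their libraries, so r is given as a description. For CBFA2T3 they were ACSM3 (r 0.9973), MYCL1 (0.9972) and NCS1 (0.9962). ACSM3, a mitochondrial acyl-CoA synthetase, went from 462 FPKM with DMSO to 151 and 44.9 with CBP30 at 2 and 5 µM, and to 389 and 344 with I-CBP112 at 2 and 5 µM, and MYCL1, a MYC family gene, from 12.7 to 6.58, 2.51, 11.3 and 9.75. For CEBPB they were SEC11A (0.9785), RPS16 (0.9777) and SNHG6 (0.9773), and for CEBPD HMOX2 (0.9902), TMEM134 (0.9857) and ZNF688 (0.9828). The longest annotated transcripts of the genes like CEBPD were 1908, 3551 and 1492 bases, and those like CEBPB 3626, 2389 and 1821 bases, and the part of the length trend in these likenesses was not tested.

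In the annotation 6 of the 10 factors (MYB, CEBPA, CEBPB, MEIS1, IKZF1 and CBFA2T3) overlap exons of a gene on the opposite strand. The libraries were stranded, but whether strand was used in computing the FPKM values is not given in the sources used here, so the reads of these pairs may not have been told apart.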

How the data were processed

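The labels and the study's methods describe stranded libraries of polyadenylated RNA, sequenced as single reads and processed with Nextpresso on hg19. The submitters' processing notes name FastQC, TopHat2 2.0.10, Bowtie 1.0.0, SAMtools 0.1.19, Cufflinks 2.2.1 and Cuffnorm. The authors deposited 1 table of FPKM values with a column per sample; samples were grouped by their titles, and the methods call the 2 samples of a condition biological replicates. Genes averaging 0.5 FPKM or more were fitted on the log2(FPKM + 1) scale by lmFit and eBayes with trend (limma 3.58.1, R 4.3.3). A single fit of 5 groups had 5 residual degrees of freedom, with 2.15 added by eBayes. It gave 4 comparisons with DMSO, 4 between treatments and a test of the difference of the dose steps. The fit was run on simulated data with the same spread in every condition. That run does not cover a deviating library such as replicate 1 of 2 µM CBP30. Transcript lengths came from GENCODE v44 on hg19, found for 94.9% of tested genes.

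The members and lists were chosen with earlier results of these data known. From each list at most 3 genes are named, those called against DMSO with at least 2 FPKM and the largest differences; others are said to have been named after their values were seen. There were 10 kinds of alternative processing (pseudocount, filters, scalings, variance model, samples in the fit, replicate block, length correction), and each sample was left out in turn. No values of proteins or isoforms were analysed here. The list of MEIS1 partner genes is not reported here.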

Additional observations from a re-analysis of the deposited data

Results flagged for a closer look

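The step of CBFA2T3 from 2 to 5 µM differed between the compounds by a direct test of the difference (log2 difference of differences −0.72, SE 0.0719, adjusted p 0.00778 by limma with Benjamini-Hochberg adjustment over all tested genes). CBFA2T3 was at 34.1 ± 0.243 and 18.1 ± 0.68 FPKM with 2 and 5 µM CBP30 and at 54.9 ± 0.232 and 49 ± 2.01 FPKM with 2 and 5 µM I-CBP112 (SD, n = 2). All 4 treated samples of CBP30 lay below all 4 of I-CBP112.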

How the results depend on the processing

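Of the 21 calls among the 10 factors, 7 held under every one of the 20 alternatives: MYB, IKZF1 and CBFA2T3 with 5 µM CBP30, CBFA2T3 with 2 µM CBP30, MYB and CBFA2T3 between the compounds at 5 µM, and the dose step of CBFA2T3 between the compounds. The count of factors lower with 5 µM CBP30 was 4, and 3 to 4 when a sample was left out.

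When a sample was left out, the counts of factors called lower and higher ranged as follows, beside the values with all samples. For 5 µM CBP30, 0 to 1 were higher (0). For 2 µM CBP30, 2 to 4 were lower (2) and 0 to 4 higher (1). For I-CBP112, 0 to 2 were lower (2) and 0 to 1 higher (0) at 5 µM, and 0 to 1 lower (1) and 0 to 1 higher (0) at 2 µM. Between the CBP30 concentrations 2 to 6 were lower (5) and 0 to 3 higher (1). Between the compounds 2 to 6 were lower at 5 µM (2), and 1 to 6 lower (2) and 0 to 4 higher (0) at 2 µM. For the dose step 1 to 6 were lower (1) and 0 to 2 higher (0). The highest counts came without a sample of 2 µM CBP30, where the calls over all 12788 genes rose too: without replicate 1 and 2 from 5962 to 8045 and 8049 with 5 µM CBP30, from 910 to 2937 and 2935 with 5 µM I-CBP112, from 205 to 1160 and 1159 with 2 µM I-CBP112, and for the dose step from 632 to 2260 and 6868. Without replicate 2 the calls over all genes also rose with 2 µM CBP30 and between the CBP30 concentrations. The higher member counts there are therefore not particular to these factors. A group left with 1 sample was assumed to vary like the others.

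When only the groups compared were fitted, 2 µM CBP30 had 1 lower and 0 higher, I-CBP112 1 higher at 5 µM and 0 lower at 2 µM, the CBP30 concentrations 0 lower and 0 higher, and the compounds 5 lower at 5 µM and 0 lower at 2 µM; this fit has fewer samples. Over all genes it called 307 genes with 2 µM CBP30 (4111 in the fit of all groups), 1661 and 28 for I-CBP112 at 5 and 2 µM (910 and 205), 6 between the CBP30 concentrations (4979), 14 between those of I-CBP112 (8), 6556 and 14 between the compounds at 5 and 2 µM (4020 and 1993), and 92 for the dose step (632).

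With the length trend removed, 5 µM CBP30 had 1 higher, 2 µM CBP30 2 higher, I-CBP112 1 higher at each concentration, the CBP30 concentrations 0 higher, the compounds 4 lower at 5 µM and 1 higher at 2 µM, and the dose step 2 lower. Over the 12130 genes with a length it called 6519 and 4762 genes for 5 and 2 µM CBP30, and 1597 and 471 for 5 and 2 µM I-CBP112. It called 4569 between the CBP30 concentrations, 4656 and 2785 between the compounds at 5 and 2 µM, and 910 for the dose step. Median centring and quantile normalization each gave 0 higher between the CBP30 concentrations and 1 lower between the compounds at 2 µM, and median centring gave 2 lower for the dose step, where quantile normalization called 1013 genes in all. Median centring called 606 genes for the dose step. Without the filter the dose step had 419 genes called and the I-CBP112 concentrations 13. With the filter at 5 FPKM, which leaves out MEIS1, CEBPA and ETV6, the CBP30 concentrations had 0 higher, and 131 genes were called with 2 µM I-CBP112 and 5 between its concentrations.

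The replicate numbers come from the sample titles. Same-numbered samples did not deviate together (correlations across genes from −0.0681 to 0.0939). With 2 samples a condition this cannot show whether they were handled together. With the replicate number as a block, 2 factors were higher with 2 µM CBP30, 0 lower with 2 µM I-CBP112, 0 higher between the CBP30 concentrations and 1 lower between the compounds at 2 µM, and 111 genes were called with 2 µM I-CBP112 and 193 for the dose step. With the block and the length correction together, 1 was higher with 5 µM CBP30, 3 with 2 µM CBP30, 1 for I-CBP112 at 5 µM, 0 between the CBP30 concentrations, 6 lower and 1 higher between the compounds at 5 µM and 1 higher at 2 µM. It called 1402 and 321 genes with 5 and 2 µM I-CBP112 and 13 between its concentrations. With CBP30 it called 6414 and 4635 genes at 5 and 2 µM and 4398 between the concentrations. Between the compounds it called 4560 and 2529 at 5 and 2 µM. The block alone called 3801 genes with 2 µM CBP30, 4541 between the CBP30 concentrations and 1419 between the compounds at 2 µM.

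Of 90 values, some that were not called changed sign. With the length trend removed, with or without the block, RUNX1 became 0.0034 with 2 µM CBP30, −0.076 between the CBP30 concentrations and −0.047 for the dose step, and IKZF1 became −0.011 between the CBP30 concentrations, 0.025 between the compounds at 2 µM and −0.018 for the dose step. Without replicate 1 of 2 µM CBP30, RUNX1 became 0.035 with 2 µM CBP30 and −0.018 between the concentrations, CEBPB −0.17 with 2 µM CBP30, and between the compounds at 2 µM SPI1 became −0.034, CEBPB −0.13, ETV6 0.005 and IKZF1 0.043. Without replicate 2, ETV6 became 0.068 between the concentrations. The other ends of these ranges, when a sample was left out, were −0.30 (RUNX1) and 0.52 (CEBPB) with 2 µM CBP30, 0.31 (RUNX1) and −0.20 (ETV6) between the concentrations, and 0.38 (SPI1), 0.56 (CEBPB), −0.26 (ETV6) and −0.20 (IKZF1) between the compounds at 2 µM. The cause of the changes was not tested. With 2 samples a condition, small differences may have gone undetected.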
